A study of Homo sapiens with 4 samples.

Results

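Basal nascent transcription was described in vehicle-treated HCT116 cells, a human colon carcinoma line, from the 2 DMSO libraries of a TT-Seq series of 4. The members were the protein-coding genes with 50 or more counts in both DMSO libraries, which were 12820 of 19901 gene rows (64.4%). The cells were HCT116 KAP1dTAG, a single clone (D5) in which endogenous KAP1, the corepressor encoded by TRIM28, carries a degron tag and HA tags. They had been given DMSO for 8 h, so they were vehicle-treated rather than untreated, and both libraries share the tag, the clonal origin and the growth in serum. The 2 libraries treated with dTAG, the ligand that degrades the tagged protein, were not used here. No condition was compared, so no test was run, and each SD is the spread between 2 libraries of one clone.

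TT-Seq (transient transcriptome sequencing) reads RNA that cells made during a short pulse of 4-thiouridine, here 500 μM for 10 min. The labeled RNA is fragmented before purification, so that fragments come from the whole transcribed length, introns included, and a gene's count rises with the number of polymerases on it and with its length. Steady-state RNA, by contrast, also depends on how long a transcript survives, and short-lived transcripts of early response genes weigh more in nascent RNA than in total RNA. Counts were therefore given on 2 scales. CPM is the count per 1000000 gene counts of a library and says how much of the nascent RNA a gene took. CPM per kb divides CPM by the length of the gene interval, from its first to its last annotated base, and is the scale on which genes were compared with each other.

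The libraries held 98944115 and 94965990 gene counts, and the members took 99.9% of them in both. Over the members the libraries had a Pearson correlation of 0.996 on the log2 CPM scale, and 12447 members (97.1%) were within 1.5-fold of each other. The log2 ratio of replicate 2 over replicate 1 rose with the GC content of the gene (Spearman rho = 0.74 over 12820 genes). It fell with gene length (rho = -0.46), and GC content and length were themselves related (rho = -0.54). Of the 12820 members, 8094 were higher in replicate 2, with a median log2 ratio of 0.08 over all members. Several GC-rich or short classes described below were higher in replicate 2, and the part of GC content in this was not tested.

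Of the 12 colon epithelial markers, 7 were members. Among them KRT18 and KRT19, intermediate filament proteins of simple epithelia, were at 60.3 ± 2.32 and 36.4 ± 3.45 CPM per kb, KRT8 at 8.44 ± 0.391 and the adhesion molecule EPCAM at 3.22 ± 0.125 CPM per kb. The intestinal transcription factor CDX2 was at 2.44 ± 0.401 CPM per kb. Markers of differentiated colon cells were under the minimum: KRT20 had 2 and 3 counts, VIL1 15 and 9, LGALS4 18 and 28, CDX1 4 and 2, and CEACAM5 0 in both libraries. None of the 7 blood markers or the 5 muscle markers was a member, and the summed CPM of the 7 fibroblast markers was 5.91 and 5.94, against 1201 and 1303 for the epithelial list. The 2 endothelial members of 5 (VWF and TEK) and the 1 liver member of 5 (SERPINA1) had mean levels of 0.0574 CPM per kb or less. The neuronal list summed to 1038 and 871 CPM because of 1 gene, SYT1, a calcium sensor of synaptic vesicles, with 1015 and 844 CPM. SYT1 spans 588 kb and lay at 1.58 ± 0.205 CPM per kb, the 62.9th percentile of members. Of the 5 neuronal markers 3 were members: SYT1, GAD1 and RBFOX3. GAD1 had 2118 and 2297 counts (0.476 ± 0.0410 CPM per kb) and RBFOX3 100 and 173 counts (0.00332 ± 0.00134 CPM per kb). SNAP25 had 40 and 24 counts and NEFL had 0. Apart from KRT20 and VIL1, the markers under the minimum were not examined for cover by other gene rows, which is described below. Their low counts cannot be read as absence of transcription. TRIM28 itself (chr19:58544090-58550722) had 61.7 and 73.3 CPM and, at 10.2 CPM per kb, the 96.1st percentile.

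The promoters of 5 genes among the highest are shown because each is among the 25 highest by CPM or by CPM per kb, the 2 rankings described next, and each holds a TATA box sequence 29 to 32 bases before the RefSeq start. They are RefSeq windows on GRCh38.p14 from 250 bases before to 50 after the start, read 5′ to 3′ on the gene's strand, with TATAAA and CCAAT, on either strand, in capitals. KITLG is at chr12:88580422-88580721 (minus strand), EREG at chr4:74364895-74365194 (plus), ID1 at chr20:31605039-31605338 (plus), H2AC20 at chr1:149886668-149886967 (plus) and H1-4 at chr6:26156079-26156378 (plus).
KITLG: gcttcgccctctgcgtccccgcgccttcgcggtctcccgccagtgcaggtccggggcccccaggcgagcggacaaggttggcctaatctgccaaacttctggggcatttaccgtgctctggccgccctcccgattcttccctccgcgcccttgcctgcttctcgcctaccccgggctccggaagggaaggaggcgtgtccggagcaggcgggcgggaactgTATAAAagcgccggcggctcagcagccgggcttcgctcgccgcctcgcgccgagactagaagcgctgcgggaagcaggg
EREG: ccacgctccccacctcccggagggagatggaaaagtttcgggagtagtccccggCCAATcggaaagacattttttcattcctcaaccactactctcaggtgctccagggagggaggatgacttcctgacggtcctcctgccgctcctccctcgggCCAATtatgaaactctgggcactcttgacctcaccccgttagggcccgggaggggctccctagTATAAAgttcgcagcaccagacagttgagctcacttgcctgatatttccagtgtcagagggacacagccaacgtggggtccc
ID1: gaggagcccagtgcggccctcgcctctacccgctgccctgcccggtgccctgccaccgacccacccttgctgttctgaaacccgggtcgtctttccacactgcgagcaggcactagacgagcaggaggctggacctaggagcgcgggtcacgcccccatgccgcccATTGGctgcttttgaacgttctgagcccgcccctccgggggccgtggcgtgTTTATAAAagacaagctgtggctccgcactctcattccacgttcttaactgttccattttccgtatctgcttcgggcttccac
H2AC20: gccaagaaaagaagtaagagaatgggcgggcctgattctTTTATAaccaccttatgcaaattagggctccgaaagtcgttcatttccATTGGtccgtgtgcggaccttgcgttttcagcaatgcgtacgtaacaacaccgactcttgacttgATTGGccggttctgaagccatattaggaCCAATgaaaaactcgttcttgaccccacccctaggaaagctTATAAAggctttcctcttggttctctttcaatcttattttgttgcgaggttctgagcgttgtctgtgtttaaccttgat
H1-4: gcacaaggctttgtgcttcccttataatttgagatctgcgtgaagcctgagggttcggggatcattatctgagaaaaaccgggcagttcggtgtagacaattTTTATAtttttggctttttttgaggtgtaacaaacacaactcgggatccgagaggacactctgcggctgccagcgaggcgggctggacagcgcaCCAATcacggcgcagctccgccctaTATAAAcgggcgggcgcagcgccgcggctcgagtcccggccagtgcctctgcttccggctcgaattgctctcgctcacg

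Nascent RNA was spread over many genes, with a steep top. KITLG, the ligand of the receptor tyrosine kinase KIT, and MT-ND4, a complex I subunit encoded by mitochondrial DNA, had the highest counts, at 5861 ± 340.1 and 5802 ± 539.2 CPM. Their order differed between the libraries, with 6101 CPM for KITLG and 6184 for MT-ND4 in replicate 1 and 5620 and 5421 in replicate 2. The gene ranked first took 0.618% and 0.562% of the gene counts, the 10 highest 3.84% and 3.55%, and the 100 highest 13.5% and 12.8%. The first 1335 genes of replicate 1 and 1426 of replicate 2 held 50% of the counts, and 5861 and 6085 genes held 90%.

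**Figure D1:**
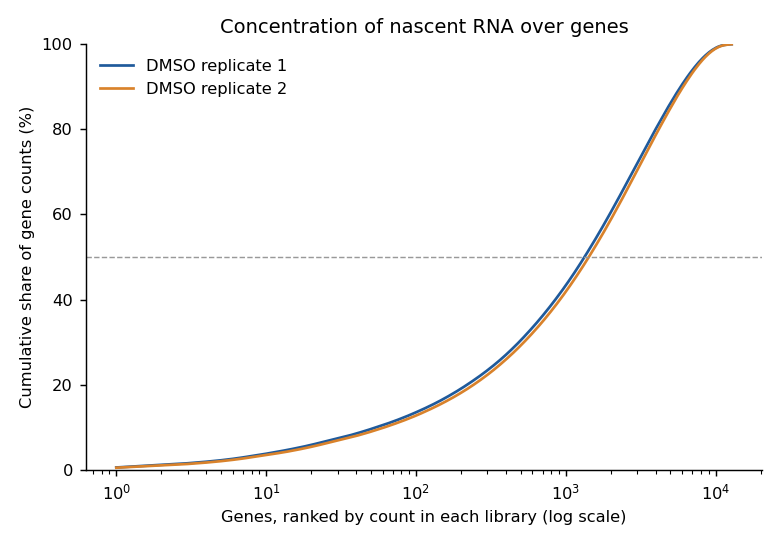
Cumulative share of gene counts (%, vertical axis) against genes ranked by count within each library (log scale), 1 line per DMSO library, with a dashed line at 50%. Both lines cross 50% early, at 1335 and 1426 genes.

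The 25 genes of highest CPM mixed 10 mitochondrial genes with nuclear genes of signaling, adhesion and the cytoskeleton. After KITLG, the nuclear genes were led by TCF7L2 (chr10:112950249-113167678), the transcription factor through which beta-catenin acts on Wnt targets. It had 3314 and 3389 CPM, a mean of 3352 ± 52.9. TRIB1, a pseudokinase that serves as a scaffold for protein degradation, followed with 2879 and 3202 CPM over only 8.09 kb, and EREG (chr4:74365142-74388751), a ligand of the EGF receptor, had 2585 and 2222 CPM.

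The other nuclear genes of the list ran from 8.60 to 833 kb in length. The actin-binding protein gene PALLD (431 kb) had 2049 ± 67.1 CPM, and the repressor gene ZBTB20 (833 kb) had 1998 ± 166.6 CPM. ZFP36L1, whose protein binds AU-rich elements and promotes mRNA decay, was at 1924 ± 172.3 CPM in 8.60 kb. The membrane-cytoskeleton linker EZR had 1927 ± 39.8 CPM and the atypical cadherin FAT1 1783 ± 10.2 CPM. Of the rest, DCBLD2, SND1, VMP1, AKAP12, the glutamine carrier SLC38A2 and RCC1 lay between 1423 and 1924 CPM. RCC1, the nucleotide exchange factor of Ran, had the largest ratio between libraries among these nuclear genes, with 1276 and 1570 CPM.

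**Figure D2:**
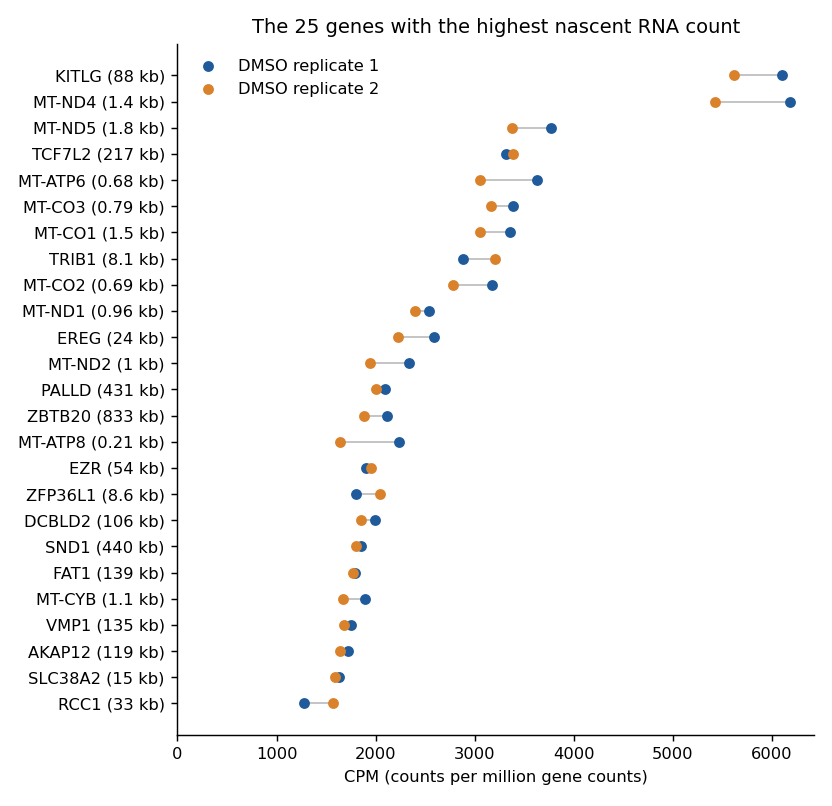
CPM of the 25 genes with the highest mean CPM in each DMSO library (points, joined by a line), with the length of each gene interval in kb. KITLG and MT-ND4 stand apart at 5421 to 6184 CPM, and the mitochondrial genes are lower in replicate 2 than in replicate 1.

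Dividing by length gave another ranking. The 100 members of highest CPM and the 100 of highest CPM per kb shared 25 genes, and the lists of 25 shared 12. The median length was 126 kb in the first list and 2.62 kb in the second, against 36.0 kb over all members. In the list by CPM per kb, 40 of the 99 genes with annotated exons had a single exon, against 10 of 100 by CPM and 2.09% of members. The median exon share of the interval was 85.8% in the list by CPM per kb, 7.40% in the list by CPM and 15.3% over members. Mature RNA in the libraries, if any, would thus weigh most in the list by CPM per kb, which was not tested. Median GC content was 52.7% in the list by CPM per kb, 41.4% in the list by CPM and 45.0% over members. KITLG, first by CPM, was 78th by CPM per kb (66.6 ± 3.86), TCF7L2 was 285th (15.4 ± 0.243) and ZBTB20 3133rd (2.40 ± 0.200). Small RNA genes lay inside 41 of the 100 highest by CPM, 22 of the 100 highest by CPM per kb and 18.8% of members, and whether reads of these RNAs were counted to their hosts was not tested.

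By CPM per kb, the first 12 places were mitochondrial and the nuclear genes after them were mostly histones, with a few regulators of growth and differentiation. H2AC20 was the first nuclear gene, with 401 and 567 CPM per kb, followed by the linker histone genes H1-2 (372 and 519) and H1-4 (363 and 519) and by H2BC17 (324 and 448). Among the genes with a symbol in the table used that are no histones, TRIB1 led with 356 and 396 CPM per kb (376 ± 28.3). ID1, an inhibitor of basic helix-loop-helix factors and a BMP target, had 286 and 376 CPM per kb. IER3 (250 ± 42.5), an early response gene of cell survival, and ZFP36L1 (210 and 238) completed the list. Each nuclear gene named here was higher in replicate 2 than in replicate 1.

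Across all members, the level per length covered a wide range. The median was 1.07 CPM per kb, the 25th and 75th percentiles were 0.361 and 2.35, and the 99th percentile (37.8) was 6868-fold above the 1st (0.00551). The minimum itself cut a continuous range: PRUNE2 with 50 and 57 counts, SELPLG with 54 and 50 and OPRD1 with 50 and 65 were just inside. SLC12A3 with 70 and 49, ACAP1 with 58 and 49 and C5 with 83 and 49 were just outside. Of the 7081 genes under the minimum, 2887 had 0 counts in both libraries. The floor of 3 counts corresponds to 0.0303 CPM in replicate 1 and 0.0316 in replicate 2, and transcription below this level was not detectable.

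Longer genes took more counts but less per length. The Spearman correlation of CPM with gene length was 0.377 and 0.348 in the 2 libraries over 12820 genes, and that of CPM per kb with length was -0.397 and -0.444. Genes of 10 to 50 kb took the largest share of counts, 29.8% ± 1.22, from 15.3% of the members' summed length. Those of 100 to 250 kb took 26.0% ± 0.816 of counts in 31.6% of the length. At the extremes, the 47 members under 1 kb took 1.75% ± 0.114 of counts with a median of 108 CPM per kb. The 176 members of 500 kb or more took 3.13% ± 0.189 in 15.0% of the length, with a median of 0.0640 CPM per kb. Of the members under 1 kb, 24 were replication-dependent histones and 8 were mitochondrial, so class and length overlap there. Only 12.1% of the 389 gene rows under 1 kb were members, against 56.2% of those of 500 kb or more. A minimum of 50 counts asks more CPM per kb of a short gene than of a long one. CPM per kb also has length as its divisor, and the part of both in these values was not tested.

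**Figure D3:**
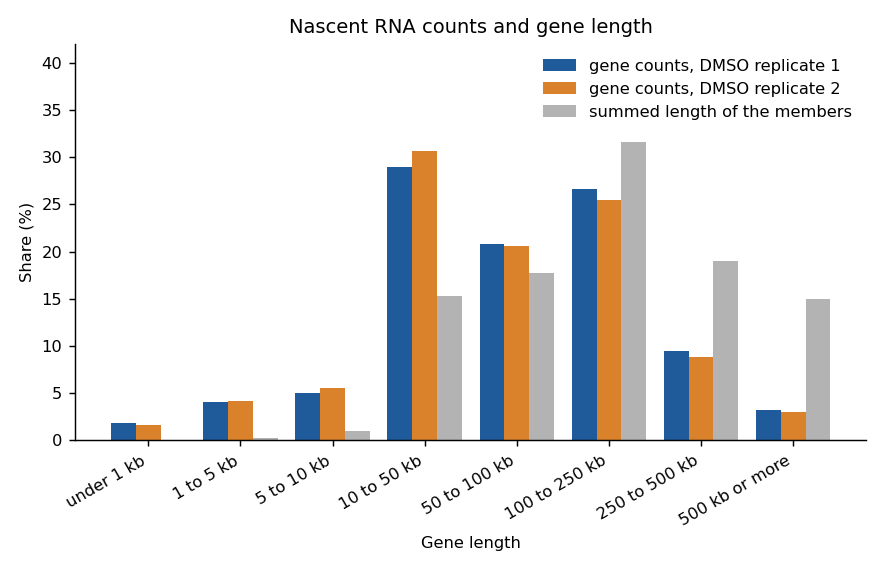
Share (%, vertical axis) of gene counts in each DMSO library and of the members' summed length, by gene length. Genes under 100 kb take more of the counts than of the length, and genes of 100 kb or more take less.

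Chromosome 1 took the largest share of counts, 9.07% ± 0.0427, close to its 8.88% of the members' summed length. Relative to that length, chromosomes 19 and 17 had the highest ratios among nuclear chromosomes, 1.58 and 1.51, and the X chromosome the lowest, 0.521. The median member on the X lay at the 35.3rd percentile of CPM per kb and 47.1% of its gene rows were members, against 64.4% over all rows. Chromosome 6 held 27 of the 100 highest genes by CPM per kb, and 33 of the 41 histone members described below lie on it.

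The 13 mitochondrial protein genes were the class with the highest median CPM per kb. This scale takes no account of the number of DNA copies per cell, which was not measured, so it gives no level per gene copy. Mitochondrial DNA is transcribed by its own polymerase from both strands into long precursors that are cut into single RNAs, and its genes encode subunits of the respiratory chain and ATP synthase. Together they took 3.39% and 2.96% of gene counts in 0.00119% of the members' length, with a median of 2077 ± 221.7 CPM per kb. MT-ATP8 was the highest (10759 and 7905 CPM per kb), followed by MT-ATP6 (5315 and 4481) and MT-CO2 (4632 and 4066). MT-ND6, the only one of the 13 on the light strand, was the lowest, with 347 and 309 CPM per kb. All 13 were lower in replicate 2, by a median of 0.19 on the log2 scale. MT-ATP8 is only 0.208 kb long and overlaps MT-ATP6, and how fragments across its ends were counted is not stated.

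Among members, replication-dependent histone genes had the highest median of the nuclear classes. Over all gene rows, with no minimum, the order was the reverse, with 13.8 CPM per kb for these histones and 35.9 for cytosolic ribosomal proteins. Histone genes of this kind are short, intronless and clustered, and are transcribed in S phase to package new DNA. Of 65 such genes matched by symbol, 41 were members, with a median of 74.7 ± 10.6 CPM per kb, the 99.5th percentile of all members, and together they took 0.325% and 0.423% of counts. Members were found in every family: 3 of 6 H1, 11 of 15 H2A, 13 of 18 H2B, 5 of 11 H3 and 9 of 15 H4 genes. A row with no symbol at chr6:26031649-26032060 (0.412 kb) had 378 ± 68.7 CPM per kb, 17th of all members. It is in no class or family here, since these were matched by symbol. The family medians ran from 17.8 CPM per kb for H2B to 441 for H1. The range within the class was wide, down to H4C8 at 0.910 ± 0.0791 CPM per kb. It went along with the annotated interval by which counts are divided: the 24 members with an interval under 1 kb had a median of 136 CPM per kb and the 17 with a longer one 15.3. All 41 were higher in replicate 2, with a median log2 difference of 0.33, against 8094 of all 12820 members and a median of 0.08. Replacement histones, which as a class are not limited to S phase, were lower: all 11 were members, with a median of 7.08 CPM per kb, among them H2AX (62.6 ± 10.7) and the centromeric CENPA (1.03 ± 0.0686).

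Cytosolic ribosomal protein genes had the next highest median, while other classes of the protein synthesis machinery lay lower. Of 79 cytosolic ribosomal protein genes, 75 were members, all 75 above the median of members by CPM per kb. Their median was 38.5 ± 3.29 CPM per kb and their share of counts 1.88% and 2.11%. RPS2 (189 and 197 CPM per kb) and RPL8 (169 and 174) led. Of the 75 members, 70 were higher in replicate 2, against 8094 of all 12820 members. Translation factors had 36 of 37 members and a median of 8.46 ± 0.796 CPM per kb, led by the elongation factors EEF2 (136 ± 5.35) and EEF1A1 (135 ± 11.6), and the start-site selection factor EIF1 had 64.6 ± 10.0. Aminoacyl-tRNA synthetases, which charge tRNAs, were all members (20 of 20) in a narrow range from 1.57 and 1.64 (WARS1) to 9.74 and 9.56 CPM per kb (TARS1). Nucleolar assembly factors had a median of 5.00 CPM per kb, with NOP56 (29.8 ± 5.13), NPM1 (27.7 ± 0.278) and NCL (26.1 ± 0.129) highest. The 71 mitochondrial ribosomal protein members of 78 had a median of only 3.13 ± 0.230 CPM per kb, led by MRPS34 (37.0 ± 2.26).

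**Figure D4:**
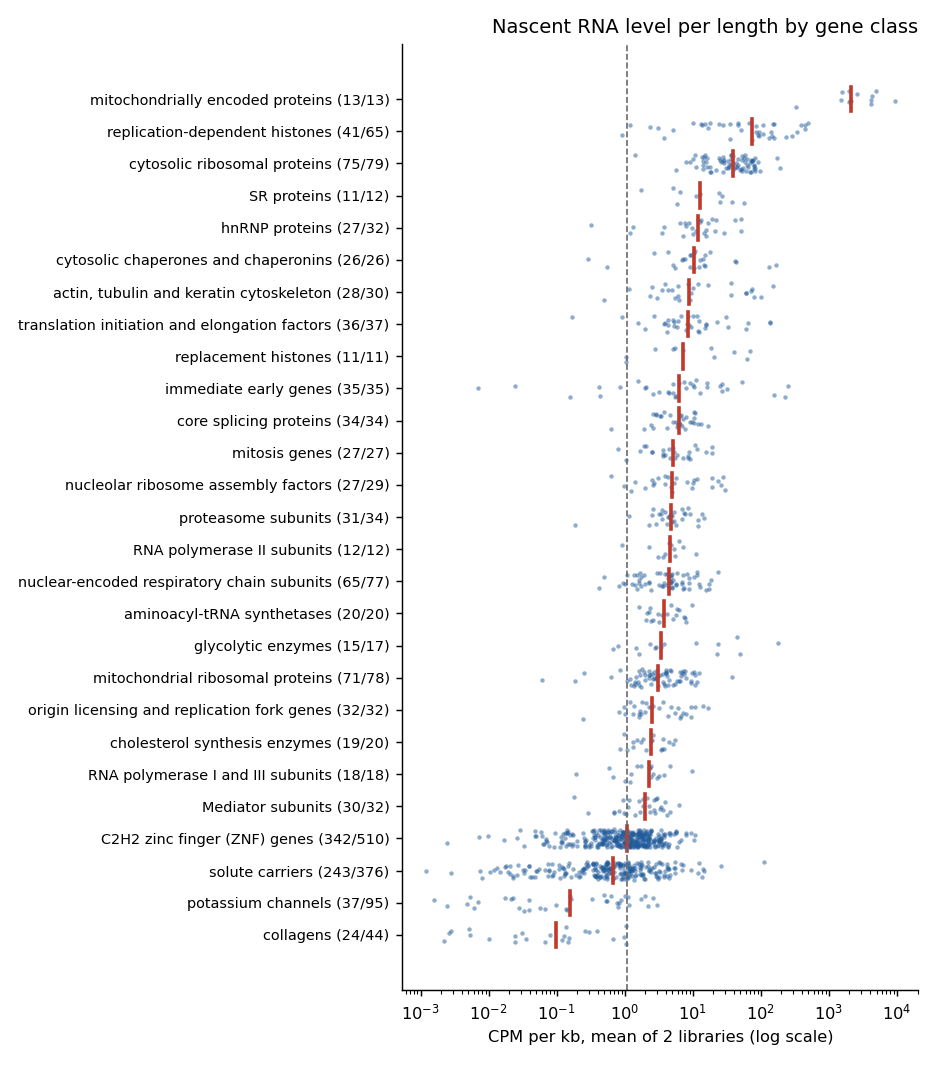
CPM per kb of each member (points; mean of the 2 DMSO libraries, log scale) in the 27 classes with at least 10 members, with the class median (red bar) and, in brackets, members of gene rows. The dashed line is the median of all members, 1.07 CPM per kb; 24 class medians lie above it, and those of solute carriers, potassium channels and collagens do not.

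RNA processing genes stood above the genes of transcription itself. SR proteins, which bind exons and recruit the spliceosome, had a median of 12.6 ± 0.247 CPM per kb (11 of 12 members), led by SRSF2 (55.6 ± 5.46), SRSF3 (37.5 ± 2.04) and SRSF6 (27.2 ± 0.207). The hnRNP proteins, which coat nascent RNA, had 11.8 ± 0.374 CPM per kb (27 of 32 members), led by PCBP1 (50.6 ± 6.07), HNRNPA2B1 (50.2 ± 1.43) and HNRNPA1 (41.8 ± 5.83). Core splicing proteins had 6.15 ± 0.118, with all 34 genes members. RNA polymerase II subunits had 4.57 ± 0.0879 CPM per kb, with the catalytic subunit POLR2A highest at 10.9 and 11.1. Subunits of RNA polymerases I and III had 2.28 ± 0.130, and Mediator, the coactivator that bridges factors and polymerase, 1.82 and 2.19 in the 2 libraries, with MED28 highest (6.16 ± 0.822).

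Protein folding, turnover and metabolism were led by single genes of high output. The cytosolic chaperones had a median of 10.4 ± 0.478 CPM per kb, with HSPA8 (171 and 167) and HSP90AB1 (131 and 128), both constitutive chaperones, far above it. The heat-inducible HSPA1A was the lowest of its class at 0.288 ± 0.0847 CPM per kb, but it is nearly identical to HSPA1B and reads that match both genes may be lost, so its value is uncertain. Proteasome subunits had a median of 4.84 ± 0.269 and ran from 0.186 ± 0.0148 for PSMA1 (139 kb) to 14.5 ± 0.265 for PSMB4. Glycolytic enzymes ranged from GAPDH (174 and 186 CPM per kb) and TPI1 (46.4 and 53.5) to PGK1 (0.665 ± 0.0245), whose annotated interval is 219 kb long, around a median of 3.43 ± 0.305. Nuclear-encoded respiratory chain subunits had a median of 4.43 ± 0.186, against 2077 for their mitochondrial partners on the same scale. That comparison takes no account of gene copies per cell. ATP5F1B was the highest nuclear-encoded subunit with 23.3 ± 0.931. Cholesterol synthesis enzymes had 2.45 over the genes' means (2.39 and 2.29 in replicates 1 and 2), led by FDFT1 (5.40 ± 0.0708).

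Among cytoskeletal genes, with a median of 8.75 ± 0.237 CPM per kb, the actin-sequestering peptide gene TMSB10 (149 ± 9.02), the tubulin gene TUBB (101 ± 5.35) and the actin regulator PFN1 (78.7 ± 0.0742) were highest. Cell cycle genes were all members. The 27 mitosis genes had a median of 5.14 ± 0.405 CPM per kb, with UBE2C (19.1 ± 2.96), MKI67 (18.8 ± 0.237) and CDC20 (15.7 ± 0.923) highest. The 32 origin licensing and replication genes had 2.53 ± 0.0304, with the helicase subunit MCM7 (16.9 ± 1.02), CDT1 (14.2 ± 2.94) and PCNA (10.8 ± 0.757) highest.

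All 35 immediate early genes, which respond to growth factors without new protein synthesis, were members in these serum-grown cells, and their levels ranged more widely than those of any class above. IER3 (250 ± 42.5 CPM per kb), ZFP36L1 (210 and 238) and MYC (143 and 172) were within the 30 highest genes. DUSP6, a phosphatase that removes ERK activity, followed at 52.0 ± 1.48 and JUND at 31.3 ± 3.05 CPM per kb. The canonical serum-response genes EGR1 (6.28 ± 0.727), JUN (5.06 ± 0.723) and FOS (1.55 ± 0.148) were lower, with other members of the class between JUND and EGR1. FOS lay at the 62.2nd percentile. At the lower end were the orphan receptor gene NR4A3 (0.0243 ± 0.00265) and EGR2 (0.00571 and 0.0083 CPM per kb, 61 and 85 counts). EGR2 has an annotated interval of 108 kb here, which lowers its value per length. The class median of the genes' means was 6.28 CPM per kb, and the medians in replicates 1 and 2 were 6.79 and 6.47. Of the 35 genes, 33 were higher in replicate 2, against 8094 of all 12820 members. Per kb of exon rather than of interval, the class median lay at the 65.1st percentile of members.

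The 342 members among 510 ZNF genes, a large family of DNA-binding factors many of which recruit KAP1 to repress repeats, had a median of 1.09 ± 0.0728 CPM per kb, the 50.8th percentile of members. Only 12 of them were above the 90th percentile. ZNF593 (10.9 ± 0.244), ZNF121 (10.3 ± 0.556) and ZNF460 (9.24 ± 1.37) were highest, and ZNF521 was lowest at 0.00245 ± 0.000130 CPM per kb. As a family they took 1.49% and 1.55% of gene counts.

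Genes of membrane transport and of restricted tissues lay lower still. Solute carriers had 243 of 376 genes as members and a median of 0.667 ± 0.0494 CPM per kb, and the amino acid carrier SLC38A2 (111 and 108) stood far above the next, the mitochondrial ADP/ATP carrier SLC25A5 (25.7 ± 1.35), and SLC7A5 (14.8 ± 2.04). Potassium channels had 37 of 95 and a median of 0.157 ± 0.00610 CPM per kb, with KCNG1 (2.97 ± 0.390), KCNK5 (2.57 ± 0.411) and KCNN4 (2.21 ± 0.259) highest. Collagens had 24 of 44 and a median of 0.0990 ± 0.0191, and none of them was above the median of members, the highest being COL6A1 (1.05 ± 0.0814) and COL6A2 (1.02 ± 0.0576).

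Gene families of sensory and skin cells, and the clustered protocadherins, had few counts. Of 388 olfactory receptor genes, 341 had 0 counts in both libraries and 3 were members, OR2A7, OR10H1 and OR8J1, with 0.0877 to 0.154 CPM per kb. One of 27 taste receptor genes, TAS2R5, passed the minimum at 1.25 ± 0.0299 CPM per kb, and 1 of 53 clustered protocadherins, PCDHB13, at 0.197 ± 0.0590. Of the 53 protocadherin rows, 39 had 0 counts in both libraries. Whether genes lie within other rows on their strand, where counts can be near 0 as described below, was not examined for any family named in this paragraph. The low counts of these families therefore cannot be read as absence of transcription. No keratin-associated protein gene of 94 and no beta-defensin gene of 39 was a member, and 79 of the former and 29 of the latter had 0 counts in both libraries. Within the 32 classes, 1355 members took 16.7% and 17.0% of the gene counts, so most nascent RNA came from the 11465 members outside them.

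Some genes that dividing cells need were nearly without counts. In the classes with fewer than 6 genes under the minimum, 23 genes were under it, and for 15 of them another gene row covered 50% or more of the interval on the same strand. The ribosomal protein gene RPS10 had 7 and 8 counts, and 99.4% of its interval lies within RPS10-NUDT3. RPL26 had 1 and 0 counts, RPL17 16 and 3 (within RPL17-C18orf32), and RPL36A 4 and 8 (within RPL36A-HNRNPH2). The elongation factor gene EEF1G had 2 and 3 counts, the glycolytic enzyme gene ALDOA 34 and 24 and ALDOC 0 in both. The proteasome genes PSMA2, PSMA6 and PSMD9 had between 0 and 4 counts, and the cholesterol enzyme gene CYP51A1, covered by LRRD1, had 5 and 7. HNRNPUL2 and MED26 had 0 counts, as did PPAN, whose interval lies within PPAN-P2RY11. NOP2 had 22 and 37 counts. MED7, with 1 and 4 counts, was covered for 25.3% on the same strand and 74.5% on the opposite one. The others had no gene row on their strand over them: SRSF12, KRT20, VIL1 and the HNRNPCL genes 1 to 4, with 0 to 15 counts each.

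The same held over the whole table. Of the 415 nuclear gene rows covered wholly by other rows on the same strand and by none on the opposite strand, 0 were members and 407 (98.1%) had 0 counts in both libraries. Of the 859 rows covered for 50% to under 100%, 39.9% were members, with a median of 0.123 CPM per kb. Among the 13341 rows that overlap no other row, 63.0% were members, with a median of 1.13 CPM per kb, and 14.2% had 0 counts. Rows covered on the opposite strand only had other values. Of the 581 covered wholly, 41.8% were members, with a median of 1.51 CPM per kb, and 24.8% had 0 counts, and of the 346 covered for 50% to under 100%, 80.3% were members. A count near 0 for a gene that lies within another one on its strand thus cannot be read as absence of transcription. Over members that no other row covers on the same strand, the class median of glycolytic enzymes was 7.19 CPM per kb, against 3.43 over all their members.

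**Figure D5:**
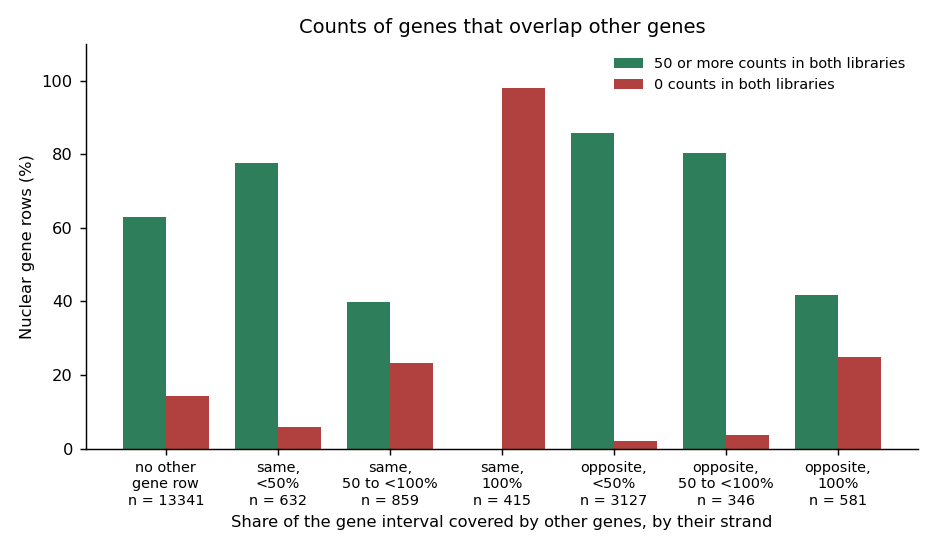
Share of nuclear gene rows (%) with 50 or more counts in both DMSO libraries (green) and with 0 counts in both (red), by how much of the interval other gene rows cover and on which strand (rows overlapped on both strands are left out). Rows covered wholly on the same strand have no member, and 98.1% of them have 0 counts.

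The promoter sequences shown above were picked for a TATA box, so that they share one is no result. Among members, the share of promoters with TATAAA rose toward the highest levels. RefSeq windows of 300 bases were found for 10348 members (80.7%) and for 1069 of the 1281 nuclear members in the highest 10% by CPM per kb. TATAAA on the sense strand in the 50 bases before the start was present in 6.27% of that highest 10%, 1.74% of members with a window and 2.63% of all 35116 windows in the table. In the histone class 21 of 37 windows had it, and in the ribosomal protein class 2 of 59. Over the whole window and both strands, TATAAA was in 10.3% of that highest 10%, 5.68% of members and 11.5% of all windows.

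Other motifs were searched over the whole window on both strands, and no motif contains another. CCAAT, the sequence bound by NF-Y, was in 44.1% of that highest 10%, 36.6% of members and 34.6% of all windows, and in 30 of 37 histone windows. CCGGAAG, a core of ETS factor sites, was in 25.4%, 18.7% and 10.3%, and AAGATGGC, the YY1 sequence, in 8.70%, 5.24% and 2.89%. GGGCGG, the GC box, was in 71.4% of that highest 10% and 70.5% of members, against 45.0% of all windows. TGCGCATG (NRF1) was in 3.55%, 3.57% and 2.18%, and the AP-1 sequence TGACTCA in 3.09%, 3.02% and 4.95%. A match is a description of letters and shows no binding.

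The members that differed most between the libraries, among those of at least 10 CPM, lay on opposite sides of the members' median GC content of 45.0%. RAB26, with 11.5 and 20.1 CPM, had the largest log2 ratio of replicate 2 over replicate 1 (0.81), followed by IDUA (0.74), ZFTA (0.69), JMJD4 (0.69) and ADAM11 (0.67), all with a GC content of 58.3% or more. In the other direction, ZNF280D had 14.3 and 9.88 CPM (-0.54), followed by CCDC82 (-0.49), MT-ND4L (-0.48), MT-ATP8 (-0.44) and RADX (-0.44), all with a GC content of 43.0% or less. Whether base composition sets these ratios was not tested.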

How the data were processed

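TT-Seq counts of the 2 DMSO libraries were read from the table of the whole series. The values that the authors deposited are unnormalized read counts in 4 columns, with rows for 19901 genes and for 92 ERCC spike-in RNAs. According to the methods and the submitters' processing notes, reads were checked with FastQC 0.11.8, trimmed with Trim Galore 0.6.4, mapped to hg38 with STAR and counted over whole protein-coding genes with featureCounts (Subread 1.6.3). The notes also name edgeR 3.40.1. How featureCounts treated strand and overlapping genes is not given in the sources used here. The 2 dTAG columns were not used here, and ERCC counts (0.0150% and 0.0265% of gene counts) were left out of all totals.

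The length column equals the interval from start to end. Coordinates are printed as the table gives them, and for 11084 of the 19784 identifiers found in GENCODE 44 its start is 1 base lower, as in a BED file. Symbols came from a table of gene names matched on identifiers (19802 of 19901 rows). CPM and CPM per kb were computed per library from gene counts and averaged, and precision is the SD over 2 libraries, which also covers counting error. A class median is that of the genes' means. Its SD is that of the 2 library medians, between which the class median need not lie. The methods describe 2 biological replicates per treatment condition, and the labels do not say whether they came from separate cultures. GC content was read from hg38, and exon union length, exon number and small RNA genes from GENCODE 44. Promoter windows came from RefSeq (GRCh38.p14), matched by symbol, older symbol or synonym. The table holds no windows for some genes.

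The members, the 32 gene classes and the 7 marker lists were chosen with earlier results of these data known. Named genes were the 25 highest by CPM and by CPM per kb. In each class the 3 highest and the lowest were named, with the members under the minimum where fewer than 6 were. The 3 genes on either side of the minimum, the 5 largest library ratios each way at 10 CPM or more, TRIM28 and the markers were added. A few class members between these (DUSP6, JUND, EGR1, JUN, FOS and NR4A3) were chosen after their values were seen. Alternatives were other minimums, TMM (edgeR 4.0.16), size factors (DESeq2 1.42.0), other lengths, members without overlap and leaving out each library. Coverage of an interval by other rows was examined after seeing the data. Scripts ran in Python 3.11.15 and R 4.3.3 and were tested on simulated data. Values of some single genes are not reported here.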

Additional observations from a re-analysis of the deposited data

How the results depend on the processing

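No paired analysis was possible because only the DMSO group was described and no value comes from a test. A value was taken as moved when it changed by more than the SD between the 2 libraries, or, for a count, by more than 1.5 times. The members numbered 14168 with a minimum of 10 counts and 12203 with a minimum of 100. TMM and the DESeq2 size factors moved none of the class medians and none of the 161 named levels. The factors of replicates 1 and 2 were 0.976 and 1.02 for TMM and 0.993 and 1.01 for DESeq2. With factors this near to each other, a mean of 2 libraries could hardly move by the SD between them, so little follows from this. Without a minimum, neither the number of genes that hold 50% of the counts nor the share of the 100 highest moved. Over members that overlap no other row, of their own counts, the latter was 15.4%, and over nuclear genes alone, an alternative chosen after seeing the data, it was 11.1%.

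With exon union length from GENCODE 44 in place of the interval, the class medians per kb of exon were 89.0 for replication-dependent histones, 72.8 for ribosomal proteins, 32.8 for translation factors, 36.8 for hnRNP proteins, 23.1 for SR proteins, 39.7 for chaperones, 31.4 for glycolytic enzymes, 15.3 for nuclear respiratory chain subunits, 10.9 for immediate early genes, 4.92 for ZNF genes, 4.36 for solute carriers, 1.98 for potassium channels and 0.616 for collagens, since a shorter length divides the same counts. The percentile of the class median fell to 65.1 for immediate early genes and from 97.1 to 84.8 for SR proteins, and rose from 84.4 to 90.4 for glycolytic enzymes. Without a minimum, medians were 13.8 for replication-dependent histones, 9.79 for hnRNP proteins, 11.9 for SR proteins, 2.90 for glycolytic enzymes, 3.78 for nuclear respiratory chain subunits, 0.505 for ZNF genes, 0.228 for solute carriers, 0.00273 for potassium channels and 0.00597 for collagens CPM per kb. Over members that overlap no other row they were 85.8 for replication-dependent histones, 53.4 for ribosomal proteins, 13.0 for hnRNP proteins, 9.55 for SR proteins, 11.4 for chaperones, 4.66 for nuclear respiratory chain subunits, 1.18 for ZNF genes, 0.846 for solute carriers and 0.0727 for collagens. With overlap barred on the same strand only, an alternative chosen after seeing the data, they were 85.6 for replication-dependent histones, 12.8 for hnRNP proteins, 11.9 for SR proteins, 7.19 for glycolytic enzymes and 1.21 for ZNF genes.

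The correlation of CPM with length was 0.257 over all rows with at least 1 count in both libraries, 0.386 over members with no overlap and 0.389 over members with none on the same strand, and that of CPM per kb with length was -0.299 over the first of these sets. In the highest 5% of members, motif shares were 14.9% for TATAAA, 10.7% for TATAAA before the start, 47.1% for CCAAT, 68.2% for GGGCGG, 1.88% for TGACTCA, 24.9% for CCGGAAG, 3.58% for TGCGCATG and 6.97% for AAGATGGC. In the highest 20% they were 7.91% for TATAAA, 3.72% for TATAAA before the start, 41.5% for CCAAT, 72.8% for GGGCGG, 26.3% for CCGGAAG, 3.63% for TGCGCATG and 8.47% for AAGATGGC. With 1 library left out, medians ran from 35.1 to 39.7 for ribosomal proteins, 11.4 to 11.9 for hnRNP proteins, 9.90 to 10.6 for chaperones and 6.47 to 6.79 for immediate early genes CPM per kb, and motif shares from 10.2 to 10.3% for TATAAA, 43.9 to 44.6% for CCAAT, 71.3 to 71.5% for GGGCGG, 2.89 to 3.08% for TGACTCA, 24.9 to 25.2% for CCGGAAG and 3.548 to 3.551% for TGCGCATG. The depth of 94965990 gene counts or more per library limits only genes near the minimum, and 2 libraries limit every SD.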
